A study of Mus musculus with 4 samples.

Results

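The genes described here are listed for the uptake, activation and breakdown of decitabine and for drug efflux. They are 10 mouse genes, Slc29a1, Slc29a2, Dck, Nme1, Cda, Dctd, Samhd1, Abcg2, Abcb1a and Abcb1b, out of 22180 genes measured. A gene's row was taken from the deposited value table where the platform annotation gave that symbol alone, and where a gene had several such rows the row with the highest mean was kept. All 10 genes had a row. RNA came from BR5FVB1-Akt cells, a cultured mouse line whose tissue type is labelled ovarian cancer. There were 2 control samples without decitabine and 2 samples given 10 uM decitabine for 72 h, each on 1 Affymetrix mouse whole-transcript array. Both groups grew in the same serum-containing medium, and the labels give neither the line's genotype and origin nor a vehicle for the controls. The titles call them biological replicates but tell nothing of separate cultures, and p-values here cover just the spread among these 4 arrays, which may be technical.

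Decitabine is a deoxycytidine analogue that acts only after it has become a nucleotide. Equilibrative nucleoside transporters, among them the products of Slc29a1 and Slc29a2, let nucleosides across the plasma membrane. Deoxycytidine kinase (Dck) adds the initial phosphate, a nucleoside monophosphate kinase the next, and nucleoside diphosphate kinases such as Nme1 make the triphosphate that DNA polymerases insert into DNA. Cytidine deaminase (Cda) inactivates the nucleoside and dCMP deaminase (Dctd) acts on its monophosphate, while the human counterpart of Samhd1 cleaves the triphosphate. The products of Abcg2, Abcb1a and Abcb1b are membrane pumps that expel many drugs and dyes, and mice carry Abcb1a and Abcb1b in place of the human gene ABCB1. Whether these pumps carry decitabine was not measured here.

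The efflux pump genes Abcg2 and Abcb1b and the kinase gene Nme1 had the largest differences, between 1.41-fold and 1.53-fold higher with decitabine. The gene of the rate-limiting activating kinase, Dck, and the deaminase genes Cda and Dctd had values that overlapped between the groups. In limma, a linear model that pools the spread of all genes, with Benjamini-Hochberg adjustment over the 22180 genes and calls made at an adjusted p under 0.05, 0 of the 10 genes passed in either direction, beside 0.131% of all genes called higher and 0.0135% called lower. The smallest adjusted p among the 10 was 0.163, that of Nme1. At an unadjusted p under 0.05, 4 of the 10 were higher and 0 lower, beside 7.34% and 6.97% of all genes. When the variance model let the spread depend on intensity, a setting called the intensity trend below, 4 of the 10 passed as higher and 0 as lower, beside 3.68% and 3.6% of all genes. Those 4 were Nme1, Samhd1, Abcg2 and Abcb1b. All 4 lay above the median of mean level. A trend fit of the genes above it, added after the data were seen, called 9.39% of them higher and 9.8% lower. Both decitabine arrays lay above both control arrays for 7 of the 10 and below for 0, beside 23.4% and 22.5% of all genes. The median log2 fold change of the 10 genes was 0.24, beside 0.00 over all genes. All 10 genes lay above the 25th percentile of mean level, and 8 lay above the median, with Cda and Abcb1a below it.

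The values are taken as log2 expression from their range, and no background level could be set for a probe, so a dim value does not show that a gene is silent. Probes also differ in brightness, so levels of different genes are only roughly comparable, and every comparison between the groups sets a gene against its own level. Pearson's r over the 22180 genes, a description since genes are no replicates, was 0.995 for the pair of controls, 0.993 for the treated pair and 0.990 to 0.991 for pairs of unlike groups. Markers fixed for the labelled tissue had control means of 10.82 for Wt1 and 11.96 for Upk3b, which are mesothelial genes, 6.48 for Msln, 5.15 for Muc16 and 3.48 for Pax8, an ovarian carcinoma marker. Control means of the 6 epithelial markers ran from 4.65 for the adhesion gene Epcam to 9.24 for the keratin gene Krt18. Of these 6, 5 lay above the median control level of all genes. Those of the 8 fibroblast markers ran from 5.44 for Thy1 to 11.76 for Dcn, and 8 of the 8 lay above that median. Without a background level these values do not settle the cell type. In RNA from a whole culture, fewer cells of a type and less RNA per cell cannot be told apart.

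**Figure D1:**
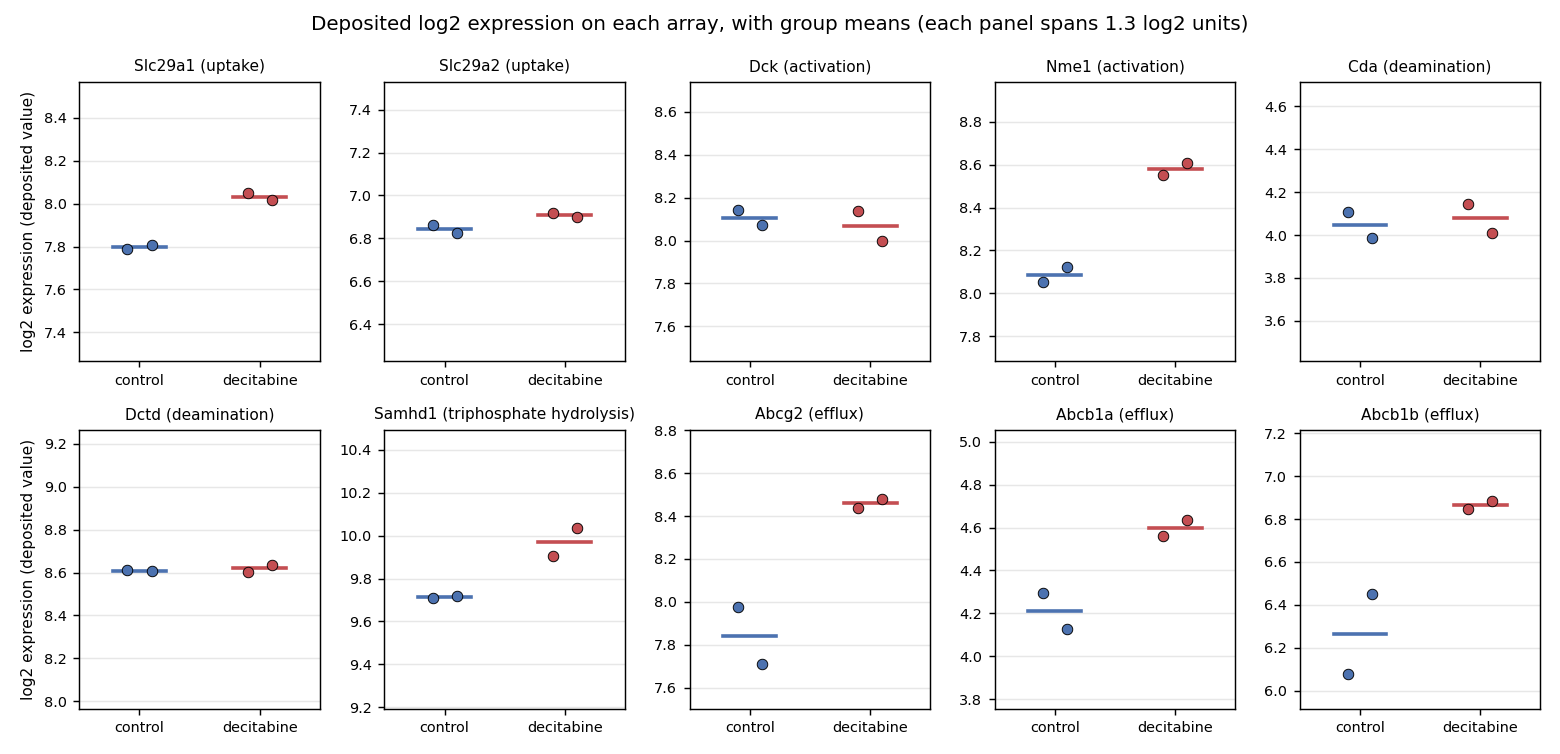
Deposited log2 expression of the 10 genes on each of the 4 arrays. Points are arrays, horizontal lines are group means (2 arrays each), and every panel spans 1.3 log2 units around the gene's mean, so distances within panels can be compared but heights between panels cannot. The groups are apart for Slc29a1, Slc29a2, Nme1, Samhd1, Abcg2, Abcb1a and Abcb1b and overlap for Dck, Cda and Dctd.

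Uptake genes showed small differences. Slc29a1 (row 17345202, chromosome 17), whose product ENT1 is the main equilibrative carrier of nucleosides in many cells, was at 7.79 and 7.81 on the control arrays and at 8.05 and 8.02 with decitabine. Its groups were apart, and each group's arrays lay close together. The difference was 0.23 ± 0.10 on the log2 scale (SE, with 2 arrays in each group), or 1.17-fold, and did not pass in limma (here and for the other 9 genes the SE and interval are those of the fit without the trend, unless said; adjusted p = 0.367, and adjusted p = 0.114 with the intensity trend). A second row of Slc29a1 (row 17337945) was dimmer, at 3.56 and 3.32 on the control arrays and 3.57 and 3.34 with decitabine. On that row the groups overlapped and the log2 difference was 0.02. Slc29a2 (row 17356325, chromosome 19), which encodes the related carrier ENT2, was at 6.86 and 6.82 and then at 6.92 and 6.90. The groups did not overlap, but the log2 fold change of 0.07 ± 0.10 was smaller than its standard error (adjusted p = 0.810), and its 95% confidence interval ran from −0.18 to 0.31.

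Dck and Nme1 encode kinases at the start and the end of activation. Dck (row 17438823, chromosome 5), whose product catalyses the step on which decitabine depends, was at 8.14 and 8.07 on the control arrays and at 8.14 and 8.0 with decitabine. These values overlapped, and the log2 fold change was −0.04 ± 0.11 with a 95% confidence interval from −0.31 to 0.24 (adjusted p = 0.917 in limma). Nme1 (row 17255157, chromosome 11), a nucleoside diphosphate kinase also known as NM23, was at 8.05 and 8.12 on the control arrays and at 8.55 and 8.61 with decitabine. The groups were apart by several times the distance between the arrays within either group. Its log2 fold change was 0.49 ± 0.10, or 1.41-fold (95% confidence interval 0.24 to 0.75). In limma the adjusted p was 0.163, and with the intensity trend Nme1 rose (adjusted p = 0.00259). Over the other settings planned for the fit, its adjusted p ranged from 0.00259 to 0.584. A further row (row 17267804) carries the symbols of both Nme1 and its neighbour Nme2, which encodes a closely similar kinase, and was not used for either gene. It was at 8.995 and 8.97 on the control arrays and at 9.19 and 9.39 with decitabine, and the log2 difference was 0.31. Which of the copies each row measures is uncertain.

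The window around the outermost annotated start of Nme1 is shown because this gene had the smallest p-value of the 10 and because the window holds a match to the E-box letters CACGTG, a sequence to which Myc and related factors can bind. It lies at chr11:93968223-93968522 (GRCm38.p6, minus strand), covers 250 bases before and 50 after the start, and is credited to RefSeq, as are the windows given further on. It is written on the gene's strand, with each CG dinucleotide and the E-box letters in capitals. The E-box match begins at position −18 from the start, and the window holds 22 CG dinucleotides.
Nme1 window: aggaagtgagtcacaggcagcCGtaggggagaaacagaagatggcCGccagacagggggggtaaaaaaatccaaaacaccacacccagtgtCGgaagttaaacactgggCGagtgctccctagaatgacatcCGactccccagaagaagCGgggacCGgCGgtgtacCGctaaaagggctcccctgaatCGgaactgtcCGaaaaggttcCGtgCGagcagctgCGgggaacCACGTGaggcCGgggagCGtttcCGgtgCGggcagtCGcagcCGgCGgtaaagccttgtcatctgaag

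Both deaminase genes had values that overlapped between the groups. Cda (row 17431761, chromosome 4), which encodes the enzyme that turns decitabine into an inactive uridine analogue, was at 4.11 and 3.99 on the control arrays and at 4.14 and 4.01 with decitabine. Its values overlapped and lay in the dim part of the arrays. Its log2 fold change was 0.03 ± 0.11, with a 95% confidence interval from −0.25 to 0.31 (adjusted p = 0.933), and the interval widened to −0.37 to 0.43 with the intensity trend. Dctd (row 17501104, chromosome 8), which encodes the deaminase of dCMP, was at 8.61 and 8.61 on the control arrays and at 8.60 and 8.64 with decitabine. Its groups overlapped, and the control arrays were almost equal. The log2 fold change was 0.01 ± 0.10, with an interval from −0.23 to 0.25 (adjusted p = 0.975). The within-array difference between Dck and Cda, which sets the activating against the inactivating enzyme on the same array, changed by −0.07 on the log2 scale. Its groups did not overlap (two-sided exact permutation test, p = 0.333). That is the smallest p that 2 against 2 arrays allow, so this test cannot decide whether the difference changed.

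Samhd1 (row 17393658, chromosome 2) encodes a deoxynucleotide triphosphohydrolase that is inducible by interferon in mice. It was at 9.71 and 9.72 on the control arrays and at 9.90 and 10.04 with decitabine. Its groups were apart, and the spread lay nearly all in the decitabine arrays. Samhd1 thus differed by 0.26 ± 0.10 on the log2 scale, or 1.19-fold, with a 95% confidence interval from −0.01 to 0.52. It did not pass in limma (adjusted p = 0.361) and rose with the intensity trend (adjusted p = 0.0341), with adjusted p from 0.0341 to 0.678 over the planned settings. In fits with the trend that left out 1 array, the call was lost without control replicate 1, without control replicate 2 and without decitabine replicate 2. The within-array difference between Dck and Samhd1 changed by −0.29 on the log2 scale, and its groups did not overlap (two-sided exact permutation test, p = 0.333, the smallest possible).

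All 3 efflux genes were higher on both decitabine arrays than on both control arrays. Abcg2 (row 17459014, chromosome 6), which encodes the pump BCRP, was at 7.97 and 7.71 on the control arrays and at 8.44 and 8.48 with decitabine. Its control arrays were farther apart than its decitabine arrays, with control replicate 2 the lowest. Decitabine over control, this was a log2 fold change of 0.62 ± 0.13, or 1.53-fold, with a 95% confidence interval from 0.29 to 0.94. Its adjusted p in limma was 0.170, and with the intensity trend Abcg2 rose (adjusted p = 0.00284, with 0.00284 to 0.571 over the planned settings).

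Abcb1b (row 17434555, chromosome 5), which encodes a form of P-glycoprotein, was at 6.08 and 6.45 on the control arrays and at 6.85 and 6.88 with decitabine. Control replicate 1 was the lowest here, the reverse of Abcg2, and the distance between the control arrays was the largest of the 10 genes, at 0.37. The log2 fold change was 0.60 ± 0.15, or 1.52-fold, with a 95% confidence interval from 0.21 to 0.99. Leaving out 1 array at a time moved it from 0.41 without control replicate 1 to 0.79 without control replicate 2. In limma the adjusted p was 0.213, and with the intensity trend Abcb1b rose (adjusted p = 0.0206, with 0.0206 to 0.584 over the planned settings). Abcb1a (row 17434524, chromosome 5), which encodes the P-glycoprotein of the mouse blood-brain barrier, was at 4.29 and 4.13 and then at 4.56 and 4.64. The groups were apart by less than for Abcb1b, at a dim level. With a log2 fold change of 0.39 ± 0.11, or 1.31-fold, Abcb1a passed neither without the trend (adjusted p = 0.244) nor with it (adjusted p = 0.257). The within-array difference between Abcb1a and Abcb1b moved by −0.21 on the log2 scale, and its groups overlapped (two-sided exact permutation test, p = 1). Abcb1a and Abcb1b are closely related neighbours, so part of the signal of either row may come from the other gene.

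Endothelial and leukocyte cells can carry these pumps, and the summed levels of their markers were higher on both decitabine arrays. No marker of any list named here passed in limma without the trend. For the 5 endothelial markers the summed level, as the sum of linear values, was 121.7 to 137.2 on the control arrays and 143.9 to 144.3 with decitabine, and 0 of the 5 passed with or without the trend. For 5 measured leukocyte markers it was 131.9 to 135.8 and then 174.3 to 174.7. The lysosomal gene Cd68, at 6.60 and then 7.05, made up most of that sum and of its rise. Cd68 was the 1 of the 5 that rose with the trend. The log2 fold changes of the others were 0.50 for Itgam, 0.16 for Ptprc, 0.03 for Cd3e and −0.08 for Adgre1. Control means of the leukocyte markers ran from 2.98 for Adgre1 to 6.60 for Cd68, with the defining gene Ptprc at 3.04. Those of the endothelial markers ran from 3.49 for Tek to 5.99 for Pecam1, with Cdh5 at 3.68. In each of these lists 1 marker lay above the median control level of all genes, and no marker value was listed at 0. The 6 epithelial markers summed to 1284 to 1325 and then to 1601 to 1650. All 6 were separated upward, with a median log2 fold change of 0.29. With the trend 3 of them rose, the keratin genes Krt8, Krt18 and Krt19. The 8 fibroblast markers summed to 10787 to 11072 and then to 12114 to 12246, with 2 higher (Thy1 and Acta2) and 1 lower with the trend, but their median log2 fold change was −0.03, with 3 separated upward and 3 downward, and Acta2, at 11.19 and then 11.91, carried the rise of the sum. The 5 ovarian carcinoma and mesothelial markers summed to 5924 to 5960 and then to 5173 to 5213, with 1 higher and 2 lower with the trend. The 2 lower, Upk3b (11.96, then 11.77) and Wt1 (10.82, then 10.54), made up most of the sum. The 1 higher was Msln, at 6.48 and then 7.34. These small counts stand beside 3.68% of all genes called higher and 3.6% lower with the trend, and 23.4% separated upward and 22.5% downward. The part of these markers in the differences of the 10 genes was not tested.

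**Figure D2:**
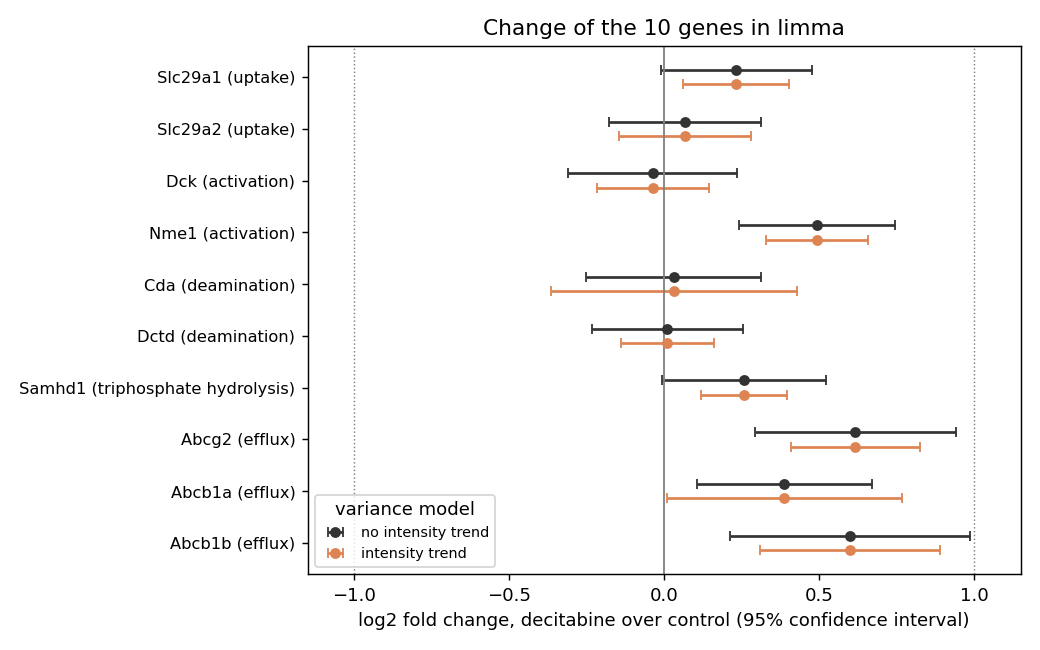
Log2 fold change of the 10 genes, decitabine over control, with 95% confidence intervals from limma without (black) and with (orange) the intensity trend. Dotted lines mark a 2-fold difference either way, and no interval reaches them. The intervals of Nme1, Abcg2, Abcb1a and Abcb1b lie above 0 in both models.

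The 95% confidence intervals of all 10 genes lay within a 2-fold difference either way, as did those of 96% of all genes, so that share is close to the background. With the intensity trend the intervals of Slc29a1 and Samhd1 also lay above 0, and of these genes Slc29a1 did not pass after adjustment.

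The start windows of the efflux genes are shown because all 3 genes were higher on both decitabine arrays and their windows span a wide range of CG content, the dinucleotide at which decitabine lowers methylation. Methylation was not measured on these arrays. Over all 32851 windows of this length in the RefSeq table (GRCm38.p6), the CG count had a median of 7.0 and quartiles of 3.0 and 20.0. The window of Abcb1a, at chr5:8566841-8567140 (plus strand), holds 2 CG dinucleotides, and that of Abcb1b, at chr5:8797897-8798196 (plus strand), holds 12. Abcg2 has 3 annotated starts, of which the most upstream, at chr6:58584283-58584582 (plus strand), holds 3, and the most downstream, at chr6:58640296-58640595 (plus strand), holds 28. The array row does not tell which start was used. Capitals mark the CG dinucleotides.
Abcb1a window: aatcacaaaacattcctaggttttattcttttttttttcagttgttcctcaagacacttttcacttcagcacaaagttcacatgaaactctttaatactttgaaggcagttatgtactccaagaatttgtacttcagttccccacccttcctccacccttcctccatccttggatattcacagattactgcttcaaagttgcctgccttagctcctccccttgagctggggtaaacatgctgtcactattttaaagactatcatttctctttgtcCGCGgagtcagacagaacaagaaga
Abcb1b window: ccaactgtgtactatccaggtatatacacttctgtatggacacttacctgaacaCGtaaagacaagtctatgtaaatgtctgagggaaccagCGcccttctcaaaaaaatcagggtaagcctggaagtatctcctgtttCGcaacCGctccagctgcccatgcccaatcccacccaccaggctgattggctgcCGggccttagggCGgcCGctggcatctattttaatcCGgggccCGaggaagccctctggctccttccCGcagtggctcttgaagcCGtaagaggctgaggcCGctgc
Abcg2 upstream window: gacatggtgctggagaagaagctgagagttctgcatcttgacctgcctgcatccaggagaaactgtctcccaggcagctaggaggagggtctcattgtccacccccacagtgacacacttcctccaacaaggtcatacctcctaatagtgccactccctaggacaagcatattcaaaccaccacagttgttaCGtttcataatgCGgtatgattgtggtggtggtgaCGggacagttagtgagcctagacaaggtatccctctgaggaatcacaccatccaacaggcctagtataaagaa
Abcg2 downstream window: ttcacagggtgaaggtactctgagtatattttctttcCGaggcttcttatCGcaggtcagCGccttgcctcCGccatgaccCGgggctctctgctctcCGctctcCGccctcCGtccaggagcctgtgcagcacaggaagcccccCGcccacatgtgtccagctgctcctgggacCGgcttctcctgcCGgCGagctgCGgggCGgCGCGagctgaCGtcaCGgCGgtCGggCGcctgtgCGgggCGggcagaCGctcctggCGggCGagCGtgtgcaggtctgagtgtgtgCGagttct

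The windows of Dck and Cda hold 23 and 18 CG dinucleotides, that of Samhd1 holds 29, and the 3 windows of Dctd hold 7 to 11. Of the 22 windows of the 10 genes, 5 had more CG dinucleotides than the upper quartile and 1 fewer than the lower. The E-box letters CACGTG, which read the same on both strands, occurred in 3 of the 22 windows, those of both Nme1 starts, at separate sites −18 and −29 bases from the respective start, and 1 of Slc29a1, beside 7.15% of all windows. A core of the interferon-stimulated response element, GAAA followed by any 2 bases and GAAA again, was searched on both strands and occurred in 0 of the 22 windows, beside 3.44% of all. The letters GCGTG, the core of a xenobiotic response element, likewise searched on both strands, occurred in 7 of the 22, beside 32.4% of all. Those windows belonged to 5 genes, Slc29a1, Slc29a2, Dctd, Samhd1 and Abcg2 (its downstream window). These matches describe letters in these windows and not binding.

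Other genes of the pathway were taken from 5 lists, of which 60 of 65 genes were measured. Of these 60, 0 passed in limma in either direction, and with the intensity trend 5 rose and 6 fell, beside 3.68% and 3.6% of all genes. Their median log2 fold change was 0.06, with 33 positive and 27 negative. Both decitabine arrays lay above both control arrays for 20 of the 60 and below for 12, beside 23.4% and 22.5% of all genes, so the count below lay near the background. The counts for the 5 lists that follow are small and stand beside the same shares of all genes. An SE next to an adjusted p with the trend is that of the trend fit. The adjusted p of the 11 genes called with the trend ranged from 4.05e-04 to 0.683 over the planned settings.

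Among 14 measured nucleoside and nucleotide kinase genes, 1 rose and 3 fell with the trend. The gene that rose was Cmpk2, an interferon-induced mitochondrial UMP-CMP kinase, which had the largest difference of the 60 genes. It went from 4.70 ± 0.19 (SD, n = 2) to 6.05 ± 0.04, a log2 fold change of 1.35 ± 0.13 (SE without the trend), and in limma its adjusted p was 0.0579 without the trend and 4.05e-04 with it (SE 0.15). Those that fell were the mitochondrial diphosphate kinase gene Nme4 (−0.38 ± 0.08, adjusted p = 0.0232 in limma with the trend), the cytosolic thymidine kinase gene Tk1 (−0.30 ± 0.08, adjusted p = 0.0419) and the adenosine kinase gene Adk (−0.28 ± 0.07, adjusted p = 0.0427). Nme4 thus had the opposite sign to Nme1. The housekeeping kinase gene Cmpk1, whose product acts between Dck and Nme1, was at 0.09 ± 0.11 and is named outside the rule, after its value was seen.

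Of 12 measured genes that supply dCTP and dTTP, the natural nucleotides with which decitabine competes or shares enzymes, 4 rose and 0 fell with the trend. These were the mitochondrial folate enzyme genes Mthfd2 (0.58 ± 0.07, adjusted p = 6.99e-04 in limma with the trend) and Shmt2 (0.28 ± 0.05, adjusted p = 0.00877), the CTP synthase gene Ctps (0.43 ± 0.08, adjusted p = 0.00735) and the UMP synthase gene Umps (0.27 ± 0.07, adjusted p = 0.0468). The ribonucleotide reductase genes Rrm1, Rrm2 and Rrm2b, named after their values were seen, failed the threshold and lay at 0.08 ± 0.10, 0.08 ± 0.10 and 0.11 ± 0.10.

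Among 11 other ABC transporter genes, 0 rose and 2 fell with the trend, and whether this list differs from the 3 efflux genes above was not tested. Abcc10, a drug pump also called MRP7, was at −0.50 ± 0.08 (adjusted p = 0.00503 in limma with the trend) and Abcg1, which exports cholesterol, at −0.44 ± 0.12 (adjusted p = 0.0488). Among 18 nucleotidases, hydrolases and catabolic enzymes, 0 rose and 1 fell with the trend, the cytosolic nucleotidase gene Nt5c3b (−0.43 ± 0.10, adjusted p = 0.0300). The ecto-nucleotidase gene Nt5e was at 0.65 ± 0.18 and did not pass (adjusted p = 0.0544 in limma with the trend). None of the 5 other nucleoside transporter genes passed in limma in either model, with 0 of them under an unadjusted p of 0.05 without the trend and 1 with it. The concentrative transporter gene Slc28a1 was at 0.21 ± 0.10 and the lysosomal transporter gene Slc29a3 at −0.22 ± 0.12.

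**Figure D3:**
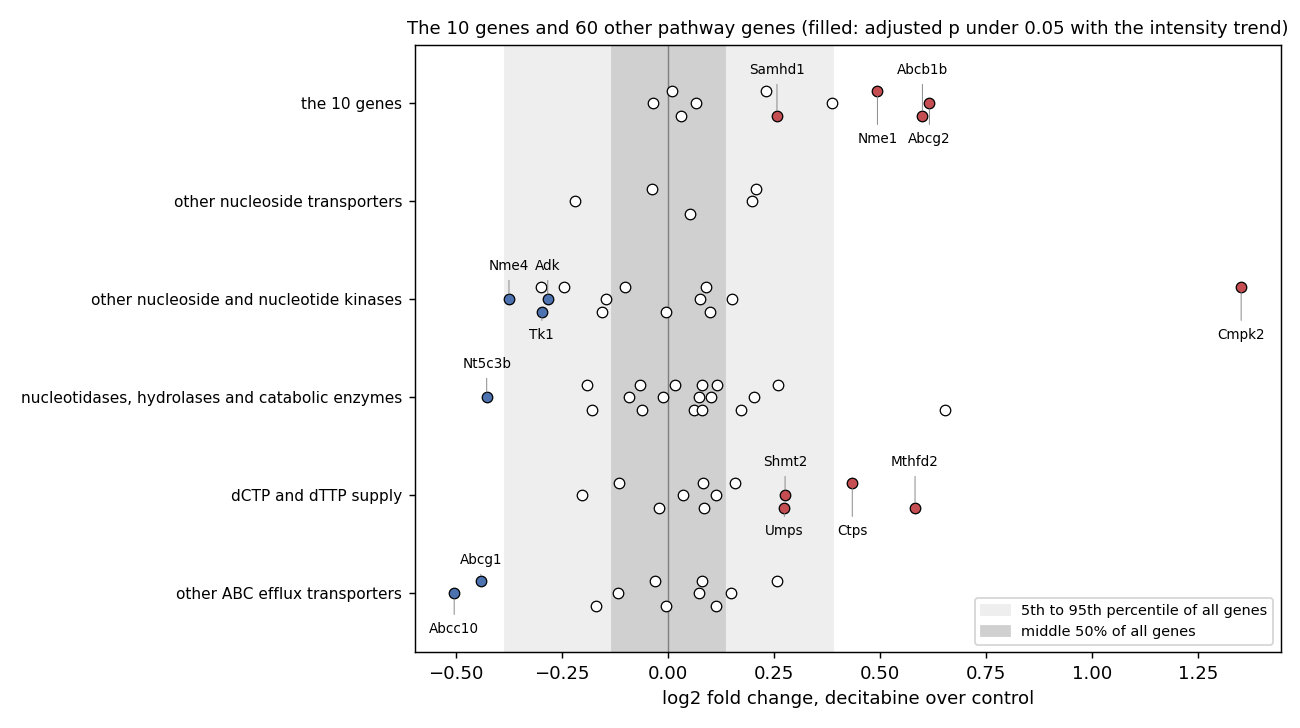
Log2 fold change, decitabine over control, of the 10 genes and of 60 other pathway genes in 5 lists. Each point is a gene, filled where it passed with the intensity trend (red higher, blue lower), and grey bands give the middle 50% and the 5th to 95th percentile of all 22180 genes. Nme1, Abcg2 and Abcb1b lie beyond the 95th percentile of 0.39, and Cmpk2 lies farthest out at 1.35.

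The calls among the 10 genes depended on the variance model and on the rows fitted. Without the trend, 3 of the 8 fitted genes passed when the dimmer genes below the median level were left out (Nme1, Abcg2 and Abcb1b). That stood beside 5.73% of all genes fitted called higher and 5.55% lower. In each other planned setting without the trend that kept all 4 arrays, 0 of the 10 passed. With all rows fitted or with the replicate number as a block, 0 of all 22180 genes passed, so that count was fixed. With the trend and all 41345 rows of the table fitted together, an alternative added after the data were seen, 0 of the 10 passed (smallest adjusted p = 0.0819). With the trend and without 1 array, also added afterwards, the count of 4 became 1 without control replicate 1 (Abcg2), 2 without control replicate 2 (Nme1 and Abcb1b), 4 without decitabine replicate 1 and 2 without decitabine replicate 2 (Nme1 and Abcg2). Over all genes the share called higher, 3.68% with all arrays, was then 1%, 0.974%, 3.01% and 2.55% in the same order. No gene of the 10 passed in all 4 of these fits. Without 1 array the log2 fold change of Abcb1b ranged from 0.41 to 0.79, that of Abcg2 from 0.48 to 0.75, that of Samhd1 from 0.19 to 0.32 and that of Nme1 from 0.46 to 0.53, and none of these 4 genes changed sign.

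**Figure D4:**
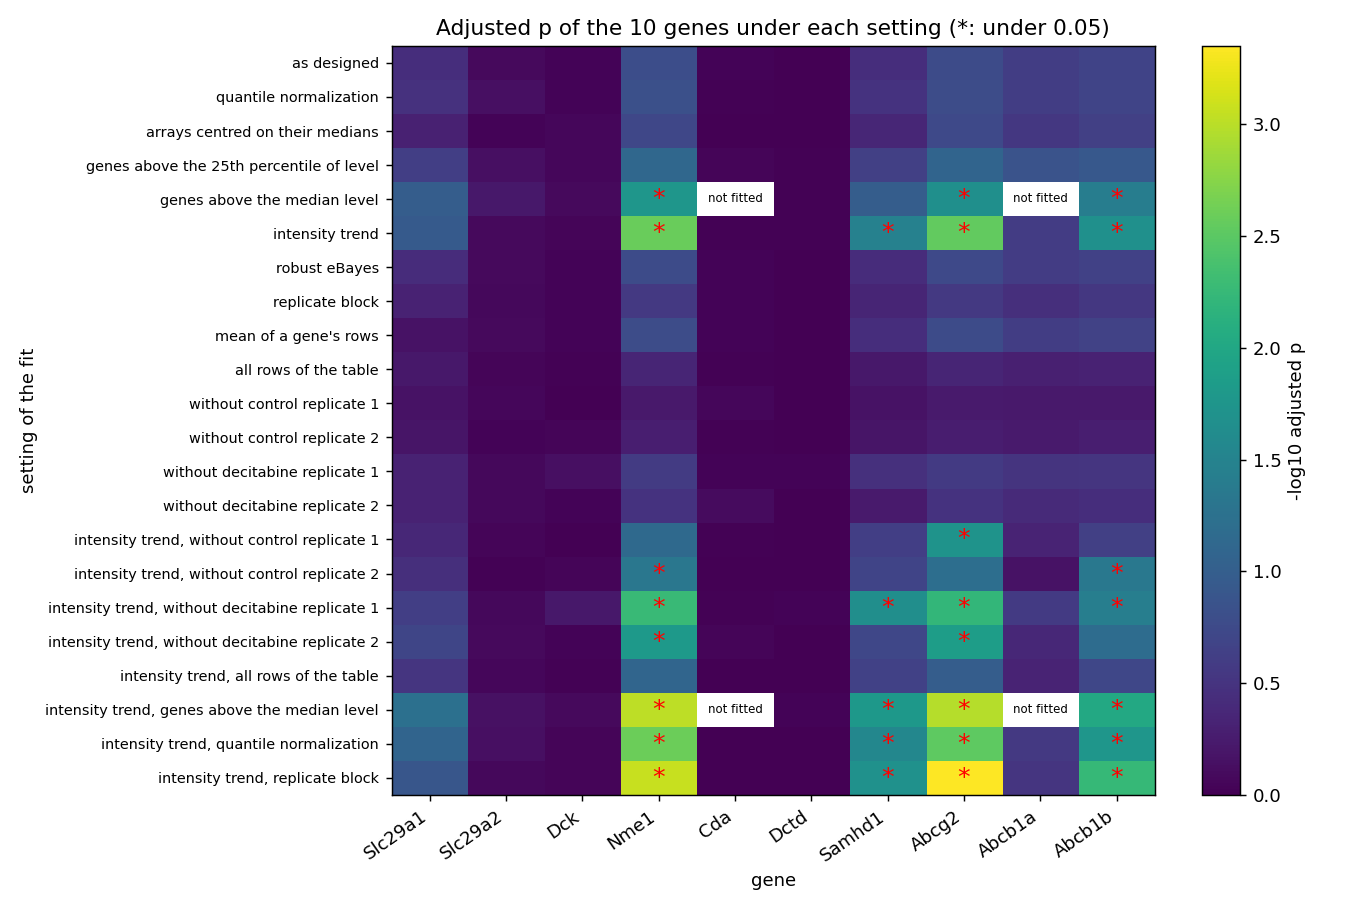
Adjusted p of the 10 genes (columns) under each setting of the limma fit (rows), as −log10, with a red star where it is under 0.05. Stars stand only under Nme1, Samhd1, Abcg2 and Abcb1b, in fits with the intensity trend other than that of all rows and in the fit of genes above the median level, and the 2 genes below that level were not fitted there.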

How the data were processed

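Gene expression was measured on 4 arrays. The authors deposited 1 value per probe row and array, taken here as log2 expression because the 41345 rows hold no missing cells and run from 0.55 to 13.26. Background correction, summarisation, normalization and genome build are not given in the sources used here. Array type and labelling are per the labels' protocols. Sample titles gave the group and the replicate number, and 0 columns belonged to other series.

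Of the rows, 23521 had 1 platform symbol, 1814 several and 16010 none. For 1082 genes with several rows the highest-mean row was kept, leaving 22180 genes. All 10 gene identifiers matched RefSeq (GRCm38.p6), used for names, chromosomes and start windows.

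R 4.3.3 with limma 3.58.1 fitted the whole table (lmFit, then eBayes; group was the only term; two-sided), p-values were adjusted by Benjamini-Hochberg across the table, and calls were made under 0.05. The prior had 3.07 degrees of freedom. No dim gene was left out. On simulated data for this comparison (22180 genes) the share of changed genes that was called came to 1% at a 1.5-fold change, 33.4% at 2-fold and 92% at 4-fold. Of the calls, 5.44% were of unchanged genes. The simulated spread did not depend on level and the fit had no trend, so these shares do not describe the trend fit. In each simulated set only a small part of the genes was changed. The adjustment depends on how many genes change, so these shares may not hold for the data here. Figures used Python 3.11.15 and matplotlib 3.10.9.

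The genes, the pathway and marker lists and the motifs were chosen with earlier results of these data known. The rule for named genes took all 10 genes and, from each pathway list, the 2 with the smallest p and all called without or with the intensity trend. Precision is limited by there being 2 arrays in each group.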

Additional observations from a re-analysis of the deposited data

How the results depend on the processing

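With 2 arrays per group and no background level, the dim genes Cda and Abcb1a had the largest SE of the 10 in the trend fit, whereas Abcb1b and Abcg2 had the largest in the fit without it. The counts with decitabine of the 10 genes and of the 60 other pathway genes were 0 higher and 0 lower as designed. Among genes above the median level, 8 of the 10 and 46 of the 60 could be fitted. There 3 of the 8 were higher, and 3 pathway genes were higher and 3 lower, beside 5.73% and 5.55% of all genes fitted. The trend gave 4 of the 10 higher, and 5 pathway genes higher against 6 lower, beside 3.68% and 3.6% of all genes. Centred arrays, genes above the 25th percentile and a threshold of 0.1 each gave 1 pathway gene higher and left the 10 at 0. Of all genes fitted, 0.194%, 0.908% and 0.514% were called higher in these settings, in the same order. Quantile normalization, robust eBayes and the mean of a gene's rows left all these counts at 0. Of all genes, 0.117%, 0.0676% and 0.14% were called higher there and 0.0135%, 0.0135% and 0.0225% lower, in the same order. With all rows and no trend the counts were also 0, but there 0 of all genes passed, so they were fixed.

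Settings that joined the trend to another choice were added after the data were seen. With all rows 2 pathway genes were higher, beside 0.514% of all genes. Among genes above the median level 4 of the 8, and with quantile normalization 4 of the 10, were higher, in both with 6 pathway genes higher and 6 lower. Of all genes fitted, 9.39% were called higher and 9.8% lower among those above the median level. With quantile normalization the shares were 4.05% and 3.71%. With 1 array left out, a group holds 1 array, so counts from those fits are not set beside the other settings here. The cause of these differences was not tested.

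Both groups carry replicate numbers 1 and 2, and the labels do not say that a number marks a shared batch. Deviations from the group means of same-numbered arrays correlated at −0.0176 over genes, so the numbers were not taken as pairs. With the replicate number as a block, 0 of the 10 and 0 pathway genes passed (smallest adjusted p = 0.278 among the 10). There 0 of all genes passed in either direction, so these counts were fixed. With block and trend, 4 of the 10 were higher, and 6 pathway genes were higher and 6 lower, beside 4.24% and 4.31% of all genes.

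Of the 10 genes, Dctd, Cda and Dck, all near 0, changed sign in a planned setting. Dctd was at −0.014 with centred arrays. Without 1 array Dctd ranged from −0.0059 to 0.027, Cda from −0.036 to 0.098 (with −0.030 without control replicate 2) and Dck from −0.107 to 0.034, and these values were equal with and without the trend.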
